A study of Capra hircus with 6 samples.

Results

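Transcripts of the insulin-like growth factor (IGF) family were measured by RNA sequencing in the goat (Capra hircus) cell line mGSCs-I-SB. The genes were taken by symbol from the deposited table: the ligands IGF1 and IGF2, the receptor IGF1R and the binding proteins IGFBP2 to IGFBP7, 9 genes of 16599 with values. The genes were chosen by their measured differences from the control line, since IGFBP2 was known to be lower, and IGFBP3 and IGFBP5 higher, in both knockdown lines than in the control line. Differences of the 9 genes from shCON are therefore given as descriptions, and no p-value is printed for them. The choice names only differences from shCON, so the direct difference between the knockdown lines is tested, although it rests on the same knockdown libraries and results of these data were known.

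The 3 lines carried short hairpin RNAs against UCHL1 (shUCHL1, labelled UCHL1 knockdown), against HSPA8 (shHSPA8, labelled HSPA8 knockdown) or a control hairpin (shCON, labelled WT), with 2 libraries per line. UCHL1 is a ubiquitin hydrolase and HSPA8 the constitutive HSP70 chaperone. All lines grew in DMEM/F12 with 10% fetal bovine serum. The sources used here do not give the number of hairpins per gene, or whether both libraries of a line stem from independent cultures, so the p-values reflect library-to-library spread alone, and that may be technical.

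IGF1 and IGF2 are secreted ligands that signal through IGF1R, a receptor tyrosine kinase that feeds the PI3K-AKT and RAS-MAPK pathways. IGFBP2 to IGFBP6 bind the ligands with high affinity outside the cell, and can hold them away from the receptor or release them when proteases cut the binding protein. IGFBP7 binds IGFs weakly. In the testis, IGFs are known as somatic signals that reach germ cells and Leydig cells.

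Depth and identity of the libraries were as follows. Each library held between 1.57e+07 and 1.64e+07 counts, and 12665 genes passed the low-count filter and were tested. Each hairpin's target was lower than in shCON, UCHL1 by 4.46-fold in shUCHL1 and HSPA8 by 1.58-fold in shHSPA8. In shUCHL1, HSPA8 was 1.30-fold higher than in shCON (edgeR quasi-likelihood test, Benjamini-Hochberg adjusted p = 0.0129). HSPA8 stood at 2579 ± 73.4 CPM in shHSPA8, against 4064 ± 67.9 CPM in shCON (SD, n = 2 each). CPM are read counts scaled to a common library total with TMM factors. The labels call the cells spermatogonial stem cells, and the listed markers of spermatogonia were partly present and partly low or without values. Of 15 such markers 9 carried values, and ZBTB16, NANOS2, SALL4, LIN28A, DAZL and STRA8 did not. RET averaged 1.33 CPM in shUCHL1, 0.577 CPM in shHSPA8 and 0.249 CPM in shCON, and ID4 6.08, 9.52 and 2.63 CPM. THY1 averaged 63.7 CPM in shUCHL1, 142 CPM in shHSPA8 and 154 CPM in shCON, ITGA6 61.5, 111 and 82.4 CPM in the same order of lines, and ETV5 12.5, 11.3 and 12.7 CPM. GFRA1 averaged at most 0.814 CPM in any line, KIT had 3 counts over all 6 libraries, and the germ cell helicase DDX4 averaged 1.88 CPM in shUCHL1, 1.12 CPM in shHSPA8 and 0.721 CPM in shCON. The fibroblast collagen gene COL1A1 averaged 9209 CPM in shUCHL1, 9944 CPM in shHSPA8 and 8274 CPM in shCON.

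The ligands were almost absent from the RNA. IGF1 (gene ID 100860838), the main mediator of growth hormone, had 1 and 0 counts in shUCHL1, 4 and 2 counts in shHSPA8, and 1 and 2 counts in shCON. IGF2 (gene ID 100861277), the fetal and imprinted ligand, had 2 and 4 counts in shUCHL1, 0 and 1 counts in shHSPA8, and 1 and 1 counts in shCON. Neither gene passed the low-count filter, so neither was tested and no fold is given. A floor of 3 counts corresponds to between 0.18 and 0.194 CPM in these libraries, for counting error only, and at this depth no difference between the lines was detectable for either ligand. The hepatic binding protein IGFBP1 had 1 and 1 counts in shUCHL1, 1 and 2 counts in shHSPA8, and 1 and 0 counts in shCON.

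The receptor was present in every line. IGF1R (gene ID 100861165) stood at 90.6 and 85.8 CPM in shUCHL1, 85.3 and 107 CPM in shHSPA8, and 71.8 and 60.4 CPM in shCON. Every knockdown library lay above both control libraries, and the libraries of the knockdown lines overlapped each other. The log2 fold change was 0.42 (standard error, SE, 0.14) in shUCHL1 and 0.54 (SE 0.14) in shHSPA8 against shCON. With a correction for transcript length the value in shUCHL1 was 0.21. Between the knockdown lines the log2 fold change of shUCHL1 over shHSPA8 was -0.12 with a 95% interval from -0.45 to 0.20 (adjusted p = 0.59, edgeR quasi-likelihood test, Benjamini-Hochberg). With the length correction that difference passed the same test, at -0.29 and an adjusted p of 0.0276. Over the alternatives the adjusted p ran from 0.0276 to 0.951.

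IGFBP2 was the member with the widest range. IGFBP2 (gene ID 102175172), which carries an integrin-binding RGD motif in mammals and is abundant in fetal tissue, stood at 2.75 and 2.70 CPM in shUCHL1, 10.6 and 10.2 CPM in shHSPA8, and 36.3 and 49.4 CPM in shCON. The libraries fell into 3 separate levels, lowest in shUCHL1. It was 15.7-fold lower in shUCHL1 than in shCON (log2 fold change -3.97, SE 0.20) and 4.11-fold lower in shHSPA8 (-2.04, SE 0.17). In bulk RNA, fewer cells of a type that carries a transcript and less of it per cell cannot be told apart.

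IGFBP3 stood in the reverse order. IGFBP3 (gene ID 102174541), the main carrier of IGFs in blood and a p53 target in human cells, stood at 18.2 and 15.7 CPM in shUCHL1, 10.9 and 9.50 CPM in shHSPA8, and 2.03 and 2.14 CPM in shCON. Again the lines did not overlap. It was 8.11-fold higher in shUCHL1 than in shCON (log2 fold change 3.02, SE 0.17) and 4.87-fold higher in shHSPA8 than in shCON (2.28, SE 0.18). The ratio of IGFBP3 to IGFBP2 per transcript length, from the deposited FPKM (fragments scaled by transcript length and library total), was 7.11 and 6.25 in shUCHL1, 1.10 and 1.00 in shHSPA8, and 0.0601 and 0.0466 in shCON. The binding protein with the higher level of the pair was thus IGFBP3 in shUCHL1 and IGFBP2 in shCON, and in shHSPA8 their levels overlapped.

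IGFBP5 stood at one level in CPM in both knockdown lines. IGFBP5 (gene ID 100860950), which binds extracellular matrix and heparin, was at 246 and 246 CPM in shUCHL1, 248 and 244 CPM in shHSPA8, and 114 and 129 CPM in shCON. Knockdown libraries lay within a narrow band above both control libraries. It was 2.02-fold higher in shUCHL1 than in shCON and higher by the same factor in shHSPA8 (1.02 on the log2 scale, SE 0.09 in each). The difference of shUCHL1 from shHSPA8 was 0.00 on the log2 scale, with a 95% interval from -0.21 to 0.21 (edgeR adjusted p = 0.993). That interval allows a difference of up to 1.16-fold. In the deposited FPKM the shUCHL1 libraries stood higher, at 50.2 and 50.26, against 46.08 and 47.02 in shHSPA8.

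IGFBP4 separated the knockdown lines. IGFBP4 (gene ID 100860812), which inhibits IGF action until the protease PAPPA cuts it, stood at 12.1 and 13.4 CPM in shUCHL1, 30.6 and 26.8 CPM in shHSPA8, and 8.42 and 9.86 CPM in shCON. Both shHSPA8 libraries were far above the other 4, and the shUCHL1 libraries lay a little above the control. It was 1.40-fold higher in shUCHL1 than in shCON (log2 fold change 0.48, SE 0.15) and 3.14-fold higher in shHSPA8 than in shCON (1.65, SE 0.14).

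IGFBP6 and IGFBP7 were lowest in shUCHL1. IGFBP6 (gene ID 102180462), which prefers IGF2 over IGF1, stood at 142 and 161 CPM in shUCHL1, 288 and 245 CPM in shHSPA8, and 180 and 221 CPM in shCON. Its levels did not overlap between lines, and the control lay between the knockdown lines. The log2 fold change was -0.40 (SE 0.13) in shUCHL1 and 0.41 (SE 0.13) in shHSPA8 against shCON. Neither difference from shCON was past the threshold on all genes. IGFBP7 (gene ID 102184134), a matrix-associated protein of fibroblasts and vessels, stood at 76.1 and 83.7 CPM in shUCHL1, 246 and 215 CPM in shHSPA8, and 183 and 239 CPM in shCON. The shHSPA8 and shCON libraries overlapped for IGFBP7, while the shUCHL1 libraries were 2.64-fold lower than shCON (log2 fold change -1.40, SE 0.15).

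**Figure D1:**
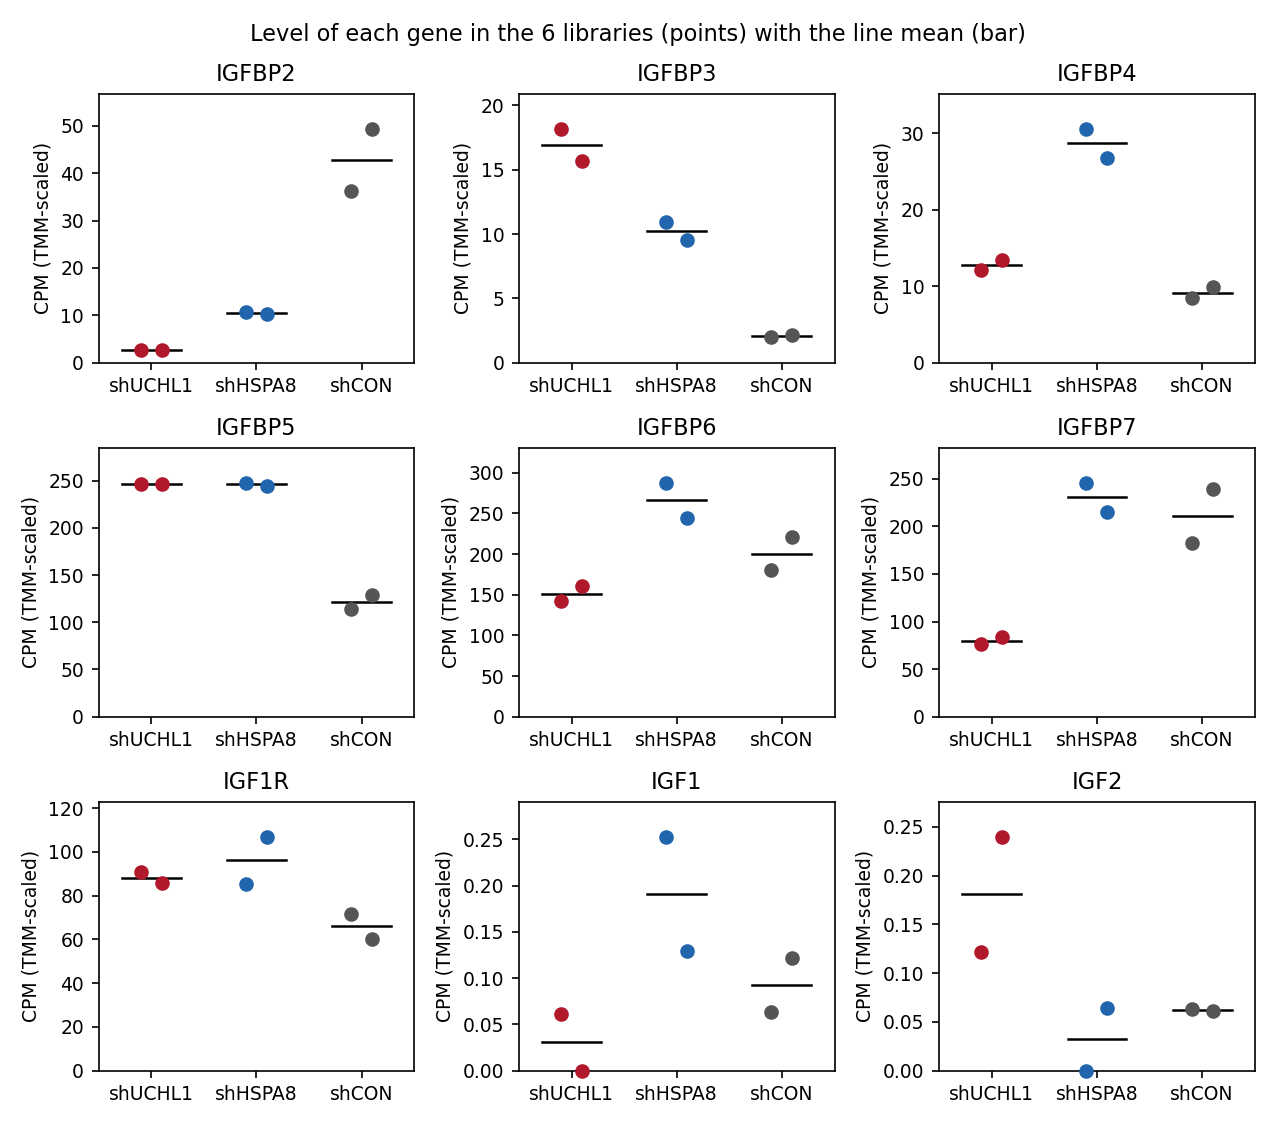
Level of each of the 9 genes (TMM-scaled CPM, linear axis from 0, own scale per panel) in shUCHL1, shHSPA8 and shCON; points are the 2 libraries of a line and bars their mean. IGFBP2 was lowest and IGFBP3 highest in shUCHL1, IGFBP5 stood near 246 CPM in both knockdown lines, and the IGF1 and IGF2 points stand for 0 to 4 counts.

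Of the 9 members 7 were tested. As a description, 2 members were higher and 2 lower than in shCON past the threshold on all genes in shUCHL1. The higher were IGFBP3 and IGFBP5, and the lower were IGFBP2 and IGFBP7. Of all tested genes 15.7% passed there, 8.54% higher and 7.15% lower. In shHSPA8, 4 were higher (IGFBP3, IGFBP4, IGFBP5 and IGF1R) and 1 lower (IGFBP2). With only shHSPA8 and shCON fitted 3 were higher, and with the length correction 5. Of all tested genes 14.7% passed in shHSPA8, 8.66% higher and 6.02% lower. Nothing is read from these counts, since the same comparisons served in the choice of the genes, and both share the shCON libraries. The levels of all 7 tested members were apart without overlap in shUCHL1 against shCON and of 6 in shHSPA8 against shCON, where 56.5% and 51.0% of all tested genes were.

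The knockdown lines differed directly in most binding proteins. In shUCHL1 against shHSPA8, 5 of 7 tested members passed the edgeR test, 1 higher and 4 lower, where 14.6% of all tested genes passed, 6.20% higher and 8.35% lower. The libraries of 5 members did not overlap, where those of 65.7% of all tested genes did not. The members were chosen with values of these same knockdown libraries known. Nothing is read from these counts, and the adjusted p-values below do not allow for that choice. IGFBP2 was 3.82-fold lower in shUCHL1 (log2 fold change -1.93, SE 0.21, adjusted p = 0.00233) and IGFBP7 2.88-fold lower (-1.53, SE 0.15, adjusted p = 0.00147), and these were the calls kept without any 1 library. IGFBP4 was 2.25-fold lower in shUCHL1 (-1.17, SE 0.14, adjusted p = 0.00303, and 0.0522 without shUCHL1 replicate 1). IGFBP6 was 1.75-fold lower (-0.81, SE 0.13, adjusted p = 0.00999), and omitting a library gave an adjusted p of 0.112 (shUCHL1 replicate 1), 0.0622 (shUCHL1 replicate 2) and 0.0585 (shHSPA8 replicate 1). IGFBP3 was 1.66-fold higher in shUCHL1 (0.73, SE 0.14, adjusted p = 0.017). That call was lost on omitting any 1 knockdown library, with an adjusted p of 0.185 (shUCHL1 replicate 1 omitted), 0.0852 (shUCHL1 replicate 2), 0.0574 (shHSPA8 replicate 1) and 0.0924 (shHSPA8 replicate 2). Of the 7 members, 2 to 5 passed over these omissions, with 2 without shUCHL1 replicate 1, 3 without shUCHL1 replicate 2 and 3 without shHSPA8 replicate 1.

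**Figure D2:**
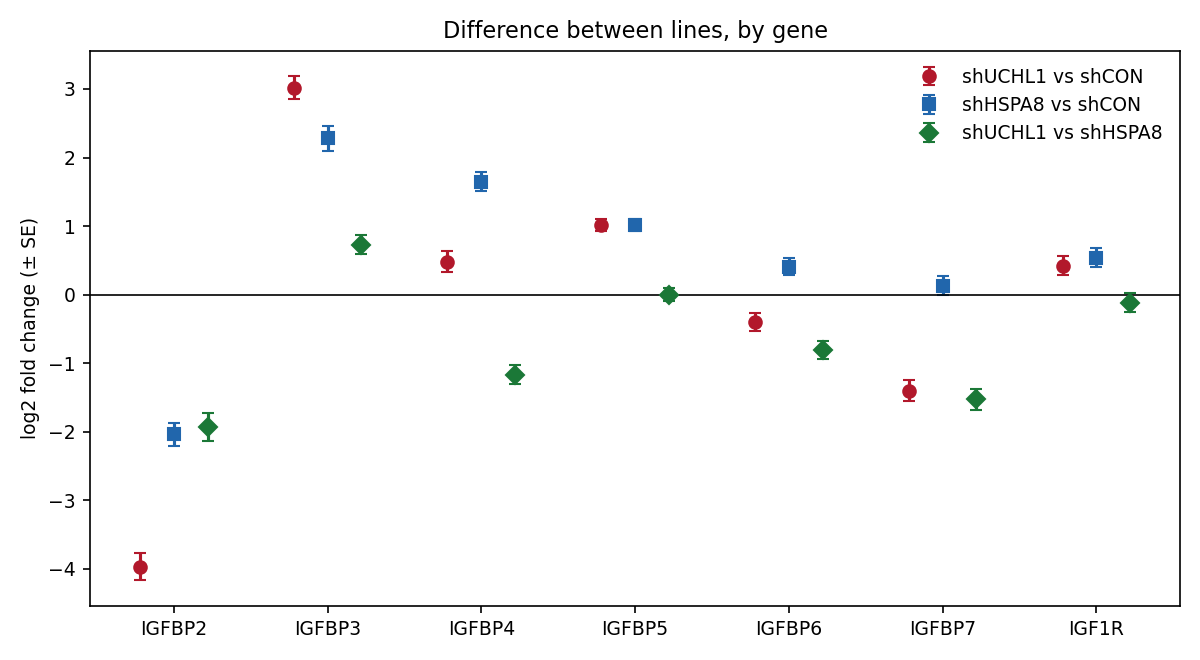
Log2 fold change (vertical axis, bars ± SE) of the 7 tested genes in shUCHL1 against shCON (circles), shHSPA8 against shCON (squares) and shUCHL1 against shHSPA8 (diamonds). IGFBP2 had the largest difference from shCON, at -3.97 in shUCHL1, and IGFBP5 lay at 1.02 in both knockdown lines and at 0.00 between them.

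The authors' deposited table gives log2 ratios for shHSPA8 over shUCHL1, the opposite direction to the values above. The authors' deposited table has 1.95 for IGFBP2, -0.72 for IGFBP3, 1.18 for IGFBP4, 0.01 for IGFBP5, 0.83 for IGFBP6, 1.54 for IGFBP7 and 0.14 for IGF1R.

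Levels of different members can be compared per length, with the deposited FPKM. In shUCHL1 the order was IGFBP6 (299 ± 28.1 FPKM), IGFBP7 (89.5 ± 6.31), IGFBP5 (50.2 ± 0.0424), IGFBP4 (26.3 ± 2.09), IGFBP3 (23.6 ± 2.38), IGF1R (8.56 ± 0.325) and IGFBP2 (3.54 ± 0.0354; SD, n = 2 each). There IGFBP4 and IGFBP3 overlapped and did not differ beyond their spread. In shHSPA8 the order was IGFBP6 (509 ± 62.6 FPKM), IGFBP7 (246 ± 25.3), IGFBP4 (57.5 ± 5.98), IGFBP5 (46.6 ± 0.665), IGFBP3 (13.6 ± 1.42), IGFBP2 (12.9 ± 0.467) and IGF1R (8.70 ± 1.30), and IGFBP3 and IGFBP2 overlapped. In shCON the order was IGFBP6 (379 ± 45.3 FPKM), IGFBP7 (226 ± 40.6), IGFBP2 (53.1 ± 10.8), IGFBP5 (24.7 ± 4.04), IGFBP4 (18.1 ± 1.54), IGF1R (6.07 ± 0.686) and IGFBP3 (2.78 ± 0.0707), and no neighbours in that order overlapped. IGFBP2 thus stood last among these genes in shUCHL1, and only IGFBP6 and IGFBP7 stood above it in shCON.

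IGFBP6 supplied most of the summed FPKM of the 6 binding proteins in every library, with 59.6% and 61.7% in shUCHL1, 58.1% and 56.8% in shHSPA8, and 55.0% and 53.0% in shCON. IGFBP7 had 18.2% and 18.2% in shUCHL1, 27.7% and 27.9% in shHSPA8, and 31.2% and 32.8% in shCON. The share of IGFBP2 was 0.761% and 0.680% in shUCHL1, 1.39% and 1.54% in shHSPA8, and 7.20% and 7.83% in shCON. IGFBP2 thus held a larger share than IGFBP3 in shCON, where IGFBP3 had 0.433% and 0.365%, and a smaller one in shUCHL1, where IGFBP3 had 5.41% and 4.25%. In shHSPA8 IGFBP3 had 1.54% in both libraries. IGFBP5 had 10.7% and 9.74% in shUCHL1, 4.84% and 5.75% in shHSPA8, and 3.47% and 3.56% in shCON. The sum itself was 468 and 516 FPKM in shUCHL1, 953 and 818 FPKM in shHSPA8, and 631 and 776 FPKM in shCON. It was lowest in shUCHL1 and highest in shHSPA8, without overlap.

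**Figure D3:**
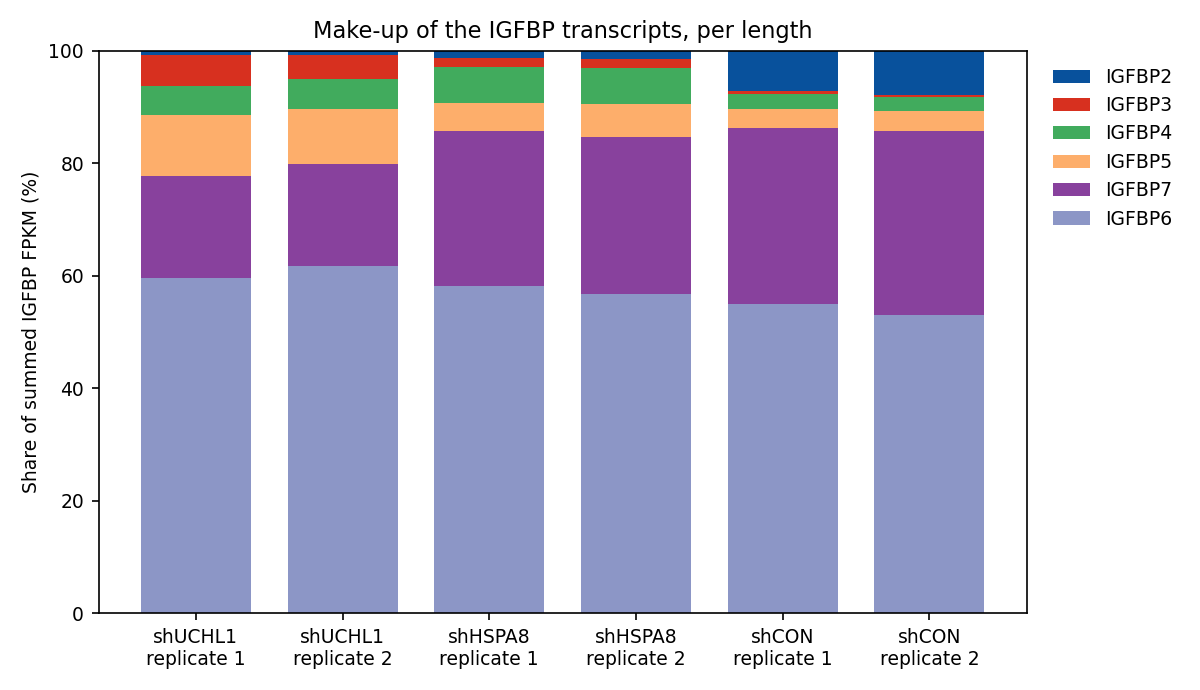
Share (%) of each binding protein in the summed FPKM of IGFBP2 to IGFBP7, 1 bar per library, for shUCHL1, shHSPA8 and shCON. IGFBP6 held 53.0% to 61.7% of every bar, and the IGFBP2 segment shrank to under 1% in shUCHL1, against 7.20% and 7.83% in shCON.

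The length behind these FPKM values was not alike for all members. Counts and FPKM together imply lengths of 4.65 to 5.26 kb for IGFBP5 and 10.7 kb for IGF1R, but of 0.484 to 0.511 kb for IGFBP4, 0.508 to 0.535 kb for IGFBP6 and 0.726 to 0.753 kb for IGFBP3, taking the table's total as the FPKM denominator. Comparisons of levels between members depend on these lengths, and differences of 1 gene between lines much less so.

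The genes whose levels over the 6 libraries lay nearest to each of the 3 leading members were found by Euclidean distance between centred log2(CPM + 1) profiles, among genes with a mean of at least 5 CPM. Nearest to IGFBP2 were the epithelial keratin KRT8 (distance 0.50), SBSPON (1.40) and the fatty acid-binding protein FABP3 (1.45). KRT8 averaged 1.30 CPM in shUCHL1, 5.97 CPM in shHSPA8 and 19.8 CPM in shCON. Nearest to IGFBP3 were complement C3 (0.34), the ubiquitin ligase NEDD4L (0.42) and the bradykinin receptor BDKRB2 (0.43), and C3 averaged 210 CPM in shUCHL1, 106 CPM in shHSPA8 and 32.5 CPM in shCON. Nearest to IGFBP5 were the interferon-induced MX1 (0.12), BAALC (0.18) and the NF-kB inhibitor NFKBIA (0.19), and MX1 averaged 43.5 CPM in shUCHL1, 43.2 CPM in shHSPA8 and 19.7 CPM in shCON. With 6 libraries in 3 lines, such likeness describes the order of the lines only.

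Other genes of the IGF system were counted in 9 lists with 127 genes in all, of which 107 were tested. In shUCHL1 against shCON 21 rose and 14 fell (32.7%, where 15.7% of all tested genes passed), with a median log2 fold change of 0.03 against 0.01 over all genes. Without shUCHL1 replicate 1 the number that passed was 16, and without shUCHL1 replicate 2 it was 18. In shHSPA8 against shCON 19 rose and 7 fell (24.3%, where 14.7% passed), with a median of 0.08. In shUCHL1 against shHSPA8 8 were higher and 19 lower (25.2%, where 14.6% passed), with a median of -0.05 against 0.02 over all genes. With library size alone as scaling the split there was 12 higher and 14 lower. The number that passed there was 12 without either shUCHL1 library and 17 without shHSPA8 replicate 1. The lists were drawn up with results on these cells known.

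**Figure D4:**
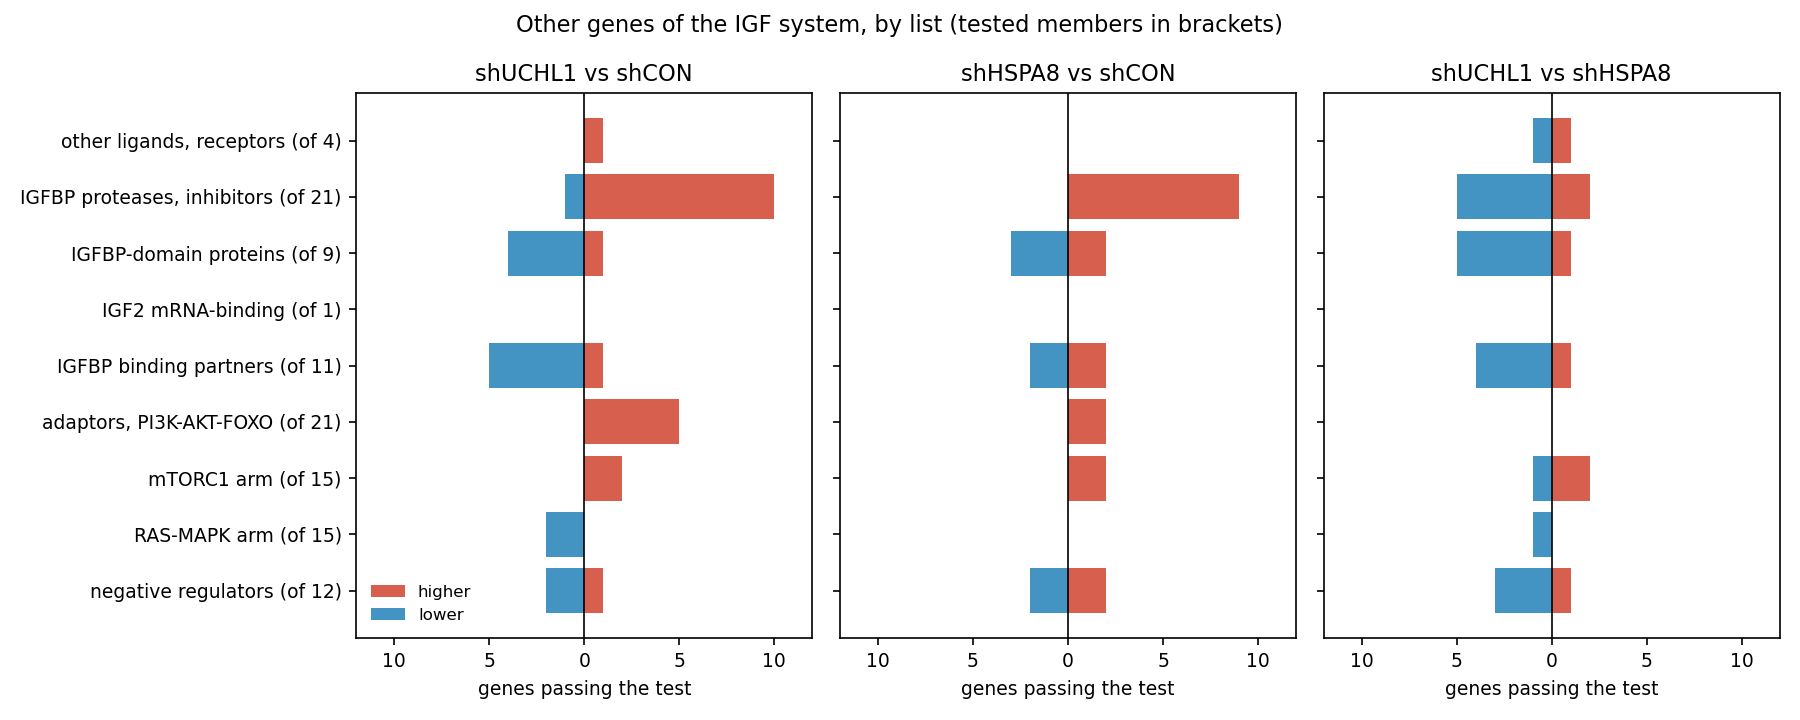
Number of genes in each of 9 lists of the IGF system that passed the test (horizontal axis; higher to the right, lower to the left) in shUCHL1 against shCON, shHSPA8 against shCON and shUCHL1 against shHSPA8, with the number tested in brackets. Proteases and their inhibitors had the most rises, 10 of 21 in shUCHL1 and 9 of 21 in shHSPA8 against shCON.

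Of the proteases that cut IGFBPs and their inhibitors, 10 of 21 rose and 1 fell in shUCHL1 against shCON (median log2 fold change 0.45). In shHSPA8 against shCON 9 rose and none fell (median 0.69). The genes that passed were 52.4% and 42.9% of the list, where 15.7% and 14.7% of all tested genes passed. Leaving out either shUCHL1 library gave 7 calls in the first comparison, and leaving out shHSPA8 replicate 1 gave 6 in the second. MMP2, a gelatinase that cuts several IGFBPs, stood at 851 and 867 CPM in shUCHL1, 1673 and 1550 CPM in shHSPA8, and 315 and 364 CPM in shCON. It rose 4.74-fold in shHSPA8 (log2 fold change 2.25, SE 0.10, edgeR adjusted p = 3.93e-05). The stromelysin MMP3 rose 2.86-fold in shUCHL1 (edgeR adjusted p = 0.000466) and 6.73-fold in shHSPA8 (edgeR adjusted p = 3.53e-05), to 15.3 and 15.5 CPM in shUCHL1 and 36.1 and 36.5 CPM in shHSPA8, against 5.38 and 5.39 CPM in shCON. The collagenase MMP1 had 231 counts over the shUCHL1 libraries and 286 over the shHSPA8 libraries, against 17 over the shCON libraries, a rise of 13.0-fold in shUCHL1 (edgeR adjusted p = 0.00032) and 17.0-fold in shHSPA8 (edgeR adjusted p = 0.00014).

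Some of these genes separated the knockdown lines. ADAM12, a metalloproteinase that cuts IGFBP3 and IGFBP5, stood at 90.0 and 86.7 CPM in shUCHL1 and 212 and 254 CPM in shHSPA8, 2.64-fold lower in shUCHL1 than in shHSPA8 (edgeR adjusted p = 0.00183). HTRA1, a serine protease with an IGFBP domain, was 1.66-fold lower in shUCHL1 than in shHSPA8 (edgeR adjusted p = 0.00635, and 0.0873 and 0.0669 without shUCHL1 replicate 1 and 2).

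PAPPA, the protease of IGFBP4, was low, at 4.83 and 3.60 CPM in shUCHL1, 2.66 and 4.78 CPM in shHSPA8, and 2.79 and 1.41 CPM in shCON. Its differences from shCON did not pass the test (edgeR adjusted p = 0.137 in shUCHL1 and 0.225 in shHSPA8). The stanniocalcins STC1 and STC2 are secreted inhibitors of PAPPA. STC1 stood at 7.64 and 7.61 CPM in shUCHL1, 6.76 and 6.59 CPM in shHSPA8, and 1.77 and 1.35 CPM in shCON, a rise of 4.88-fold in shUCHL1 (edgeR adjusted p = 0.000566) and 4.27-fold in shHSPA8 (edgeR adjusted p = 0.000621). STC2 stood at 49.6 and 49.2 CPM in shUCHL1, 29.6 and 30.1 CPM in shHSPA8, and 39.1 and 36.1 CPM in shCON. Its level in shUCHL1 was 1.65 times that in shHSPA8 (edgeR adjusted p = 0.00473, and 0.0722 and 0.0654 without shUCHL1 replicate 1 and 2). The complement protease C1S, which cuts IGFBP5, rose 2.95-fold in shUCHL1 (edgeR adjusted p = 0.00108) and stood at 15.5 and 13.5 CPM in shUCHL1, 14.2 and 12.5 CPM in shHSPA8, and 4.69 and 5.14 CPM in shCON.

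**Figure D5:**
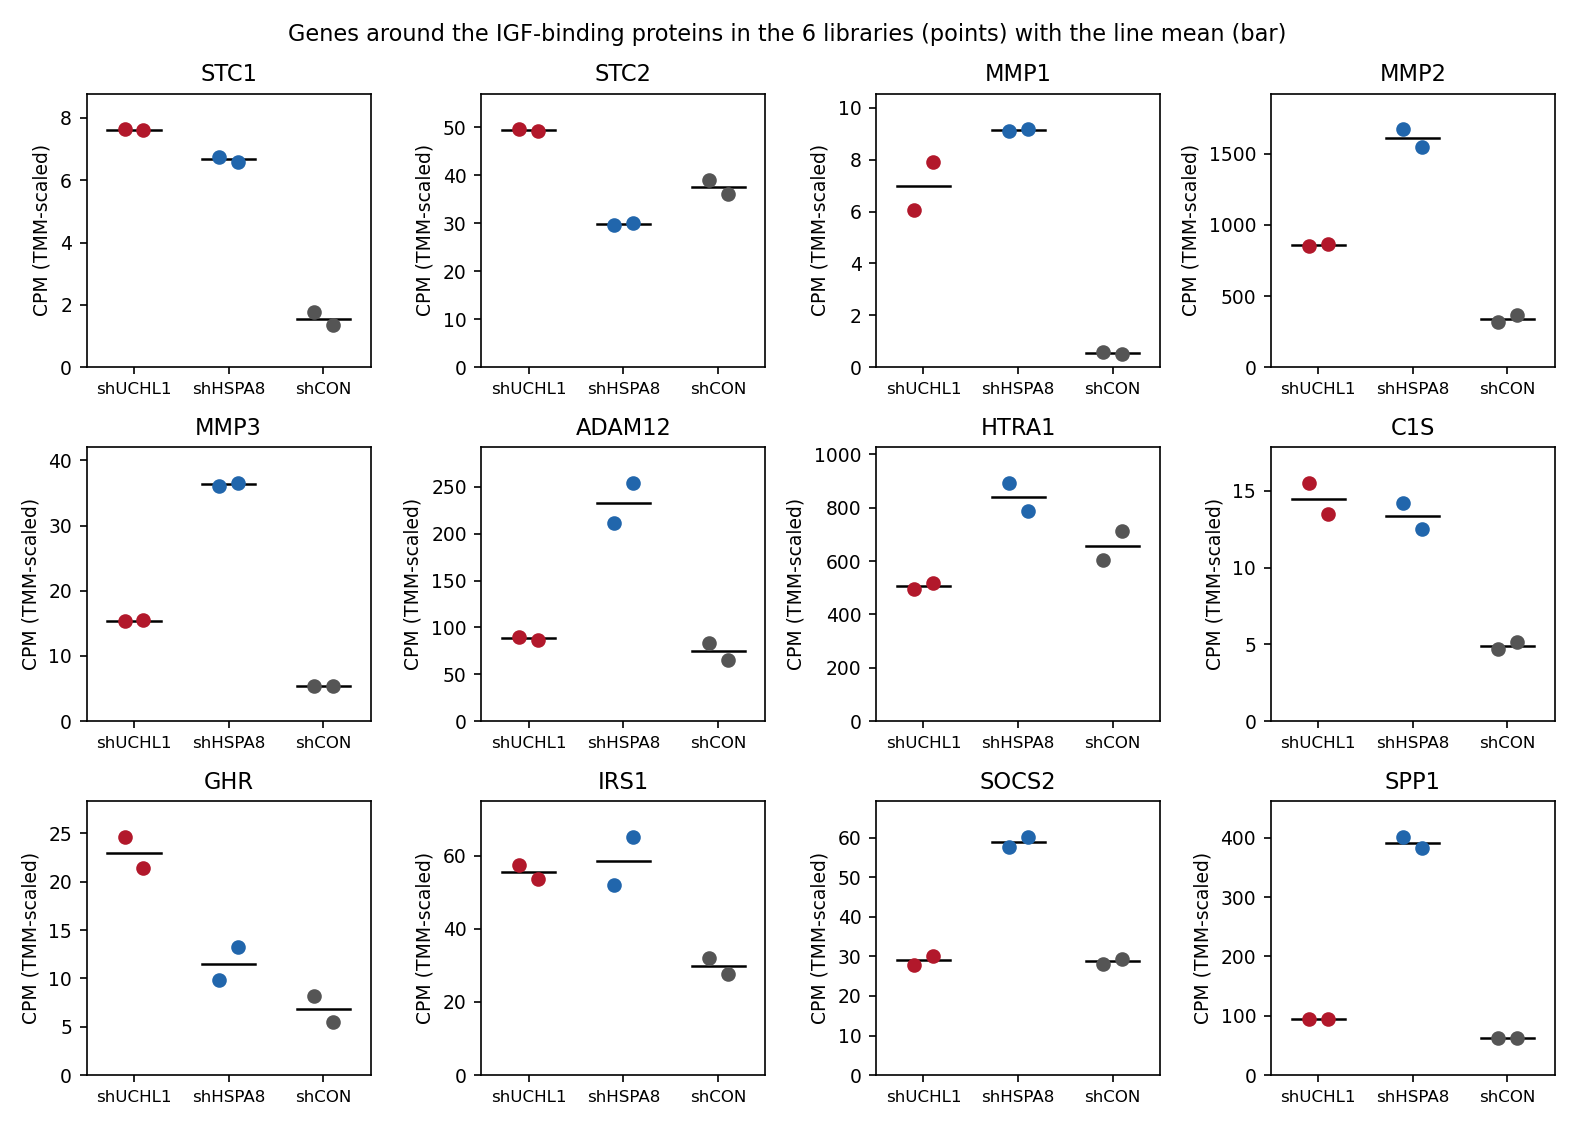
Level (TMM-scaled CPM, linear axis from 0, own scale per panel) of 12 genes of the IGF system in shUCHL1, shHSPA8 and shCON; points are the 2 libraries of a line and bars their mean. MMP2, MMP3 and STC1 lay above both shCON libraries in every knockdown library, and ADAM12, SOCS2 and SPP1 were highest in shHSPA8.

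Of the other ligands and receptors, 4 of 8 were tested. The clearance receptor IGF2R stood at 148 and 142 CPM in shUCHL1, 180 and 187 CPM in shHSPA8, and 156 and 149 CPM in shCON, with a log2 fold change of -0.08 (SE 0.08) in shUCHL1 and 0.26 (SE 0.08) in shHSPA8 that did not pass the test (edgeR adjusted p = 0.601 and 0.0795). Between the knockdown lines IGF2R was lower in shUCHL1 by 1.26-fold (edgeR adjusted p = 0.0363), a call lost without any 1 knockdown library (edgeR adjusted p = 0.145 to 0.296). The insulin receptor INSR stood at 44.0 and 42.2 CPM in shUCHL1, 48.4 and 58.5 CPM in shHSPA8, and 44.4 and 36.6 CPM in shCON. Per length, IGF1R had 8.56 FPKM and INSR 5.54 FPKM in shUCHL1, against 6.07 and 4.93 FPKM in shCON. The growth hormone receptor GHR, which drives IGF1 in liver, rose 3.37-fold in shUCHL1 (edgeR adjusted p = 0.00318), at 24.6 and 21.4 CPM in shUCHL1, 9.80 and 13.2 CPM in shHSPA8, and 8.23 and 5.45 CPM in shCON.

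Other genes code for proteins that share the IGFBP domain or bind IGFBPs. Of 9 IGFBP-domain genes 1 rose and 4 fell in shUCHL1 against shCON, with 2 passing without either shUCHL1 library. In shHSPA8 against shCON 2 rose and 3 fell. The genes that passed were 55.6% of the list in each comparison, where 15.7% and 14.7% of all tested genes passed. The matricellular CTGF fell 2.38-fold (edgeR adjusted p = 0.000294) and CYR61 1.95-fold (edgeR adjusted p = 0.000618) in shUCHL1. CTGF stood at 200 and 201 CPM in shUCHL1, 329 and 357 CPM in shHSPA8, and 467 and 488 CPM in shCON. WISP1 rose 2.17-fold in shHSPA8 (edgeR adjusted p = 0.0014), and WISP2 fell 2.88-fold there (edgeR adjusted p = 0.00303).

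Of 11 binding partners 1 rose and 5 fell in shUCHL1, with 2 passing without either shUCHL1 library, and 2 rose and 2 fell in shHSPA8. The genes that passed were 54.5% of this list in shUCHL1 and 36.4% in shHSPA8, where 15.7% and 14.7% of all tested genes passed. Fibronectin FN1 fell 2.16-fold (edgeR adjusted p = 0.000725) and thrombospondin THBS1 2.31-fold (edgeR adjusted p = 0.00218) in shUCHL1. The integrin ligand SPP1 stood at 94.8 and 94.0 CPM in shUCHL1, 401 and 382 CPM in shHSPA8, and 63.2 and 61.9 CPM in shCON, a rise of 6.26-fold in shHSPA8 (log2 fold change 2.65, SE 0.08, edgeR adjusted p = 1.51e-05). LRP1, an endocytic receptor reported to bind IGFBP3 in human cells, rose 1.90-fold in shHSPA8 (edgeR adjusted p = 0.00049).

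Further lists hold the receptor's signalling arms. Of 21 adaptor and PI3K-AKT-FOXO genes 5 rose and none fell in shUCHL1 (23.8%, where 15.7% of all tested genes passed), and 2 rose and none fell in shHSPA8 (9.52%, where 14.7% passed). The shUCHL1 count was 0 without shUCHL1 replicate 1, 1 without replicate 2 of that line and 2 without shCON replicate 2, and the shHSPA8 count was 5 without shCON replicate 1. IRS1, the docking protein of IGF1R, stood at 57.5 and 53.5 CPM in shUCHL1, 52.0 and 65.0 CPM in shHSPA8, and 32.0 and 27.7 CPM in shCON. It rose 1.86-fold in shUCHL1 (edgeR adjusted p = 0.00658, and 0.0644 without shUCHL1 replicate 1) and 1.96-fold in shHSPA8 (edgeR adjusted p = 0.00427). FOXO1, a transcription factor that AKT holds out of the nucleus, rose 1.79-fold in shHSPA8 (edgeR adjusted p = 0.00205). Of 15 genes of the mTORC1 list, which also holds the mTORC2 subunit RICTOR, 2 rose in shUCHL1 and none fell. These 2 were the brakes SESN2 (2.53-fold, edgeR adjusted p = 0.00266) and DDIT4 (2.08-fold, edgeR adjusted p = 0.00129). In shHSPA8 2 mTORC1 genes also rose, DDIT4 (1.40-fold, edgeR adjusted p = 0.0268) and the kinase MTOR itself (1.34-fold, edgeR adjusted p = 0.0222). Neither passed without shHSPA8 replicate 1 or without either shUCHL1 library, nor MTOR without shHSPA8 replicate 2 (edgeR adjusted p = 0.149), nor DDIT4 without shCON replicate 1 (edgeR adjusted p = 0.0647). In all, 5 genes of the list passed without shCON replicate 2. Of 15 RAS-MAPK genes 2 fell in shUCHL1, and none passed without either shUCHL1 library. None passed in shHSPA8, and 2 did without shCON replicate 2. With 2 of 15 genes, the mTORC1 and RAS-MAPK lists stood at 13.3% in shUCHL1, near the 15.7% of all tested genes. The mTORC1 list also stood at 13.3% in shHSPA8, near the 14.7% of all tested genes there.

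Of 12 genes listed as negative regulators 1 rose and 2 fell in shUCHL1 (25.0%, where 15.7% of all tested genes passed). In shHSPA8 2 rose and 2 fell (33.3%, where 14.7% passed). In each line, not all of these calls held over the 15 alternatives. SOCS2, an inhibitor of growth hormone signalling, stood at 27.9 and 30.2 CPM in shUCHL1, 57.5 and 60.1 CPM in shHSPA8, and 28.2 and 29.3 CPM in shCON. It rose 2.04-fold in shHSPA8 (edgeR adjusted p = 0.000737) and was 2.02-fold lower in shUCHL1 than in shHSPA8 (edgeR adjusted p = 0.0015). The pseudokinase TRIB3, which binds AKT, rose 2.02-fold in shUCHL1 (edgeR adjusted p = 0.00297). ERRFI1 fell 2.11-fold in shUCHL1 (edgeR adjusted p = 0.000713) and 1.91-fold in shHSPA8 (edgeR adjusted p = 0.000913). Whether ERRFI1 or the other listed genes act on IGF1R in these cells was not tested. The only tested IGF2 mRNA-binding protein, IGF2BP2, did not pass the test in any comparison.

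Markers of other cell types moved beside these genes. Summed over 9 myoid and fibroblast markers, the level was 11674 to 12374 CPM in shUCHL1 and 13748 to 14943 CPM in shHSPA8. In shCON it was 11665 to 13612 CPM. COL1A1 made up most of each sum, at 9209 CPM in shUCHL1, 9944 CPM in shHSPA8 and 8274 CPM in shCON. ACTA2 averaged 550 CPM in shUCHL1, 1237 CPM in shHSPA8 and 1641 CPM in shCON, and TAGLN 676, 1590 and 1754 CPM. DCN averaged 927, 823 and 442 CPM in the same order. Of the 9 markers, all tested, 2 passed as higher and 4 as lower than in shCON in shUCHL1, and 2 as higher in shHSPA8. Of all tested genes, 8.54% passed as higher and 7.15% as lower in shUCHL1, and 8.66% and 6.02% in shHSPA8. The 8 Sertoli markers with values summed to 135 CPM in both shUCHL1 libraries and 91.1 to 92.5 CPM in shHSPA8. In shCON they summed to 183 to 191 CPM. Only 5 of them were tested, and 3 passed as lower in each knockdown line. Spermatogonial markers summed to 242 to 244 CPM in shUCHL1, 615 to 657 CPM in shHSPA8 and 660 to 705 CPM in shCON, a sum in which UCHL1 itself is counted. Macrophage markers summed to 174 to 188 CPM in shUCHL1, 298 to 302 CPM in shHSPA8 and 497 to 502 CPM in shCON. Most of that sum was LCP1, at 129 CPM in shUCHL1, 236 CPM in shHSPA8 and 460 CPM in shCON, while CD14 averaged 47.5, 58.5 and 36.0 CPM in the same order and the pan-leukocyte PTPRC had 7 counts in all. Leydig markers summed to 25.3 to 30.6 CPM in shUCHL1, 21.9 to 22.1 CPM in shHSPA8 and 15.1 to 16.9 CPM in shCON, and endothelial markers to 3.78 to 5.01 CPM in shUCHL1, 3.98 to 4.01 CPM in shHSPA8 and 2.72 to 3.06 CPM in shCON. Of 8 tested spermatogonial markers 2 passed as higher and 2 as lower in shUCHL1, and 1 as higher in shHSPA8. Of 3 tested macrophage markers 1 passed as lower in shUCHL1, and 1 as higher and 1 as lower in shHSPA8. Of 3 tested Leydig markers 2 passed as higher in shUCHL1 and 1 in shHSPA8. Of 4 tested endothelial markers 1 passed as higher in each line. The part of these markers in the IGFBP differences was not tested.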

How the data were processed

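The authors deposited 1 table of 33229 entries, of which 16599 carry values; the blank entries were not used. Per the file headers, the authors give an FPKM value and a read count per library, and a log2 ratio and a p-value per pair of lines, whose test no source used here names. Between 1014 and 1117 genes per library have read counts with a fraction, so the deposited values were handled like expected counts and rounded. Per the submitters' processing notes, Trimmomatic 0.36 was used; for aligner, counter, build and strand, the sources used here give nothing. Reads shared between family members may have been split in a way not recorded. All 16599 gene IDs matched the RefSeq table of assembly ARS1.2, used for names and gene order.

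Lines were compared by the quasi-likelihood F test of edgeR 4.0.16 (R 4.3.3) after filterByExpr and TMM scaling, over 12665 genes, with line as the sole factor and the spread estimated jointly from the 6 libraries. The 2 libraries of a line were not equally alike in all lines. Their chi-square per degree of freedom was 2.38 in shUCHL1, 11.9 in shHSPA8 and 22.1 in shCON. A joint estimate may thus be too small for shCON and shHSPA8, and too large for shUCHL1. P-values were Benjamini-Hochberg adjusted over all tested genes, with a threshold of 0.05. The SE is the absolute log2 fold change divided by the square root of F. The code was tested on simulated data. Members and lists were chosen with earlier results of these data known. From each list, genes were named among called genes with groups that do not overlap, up to 4 of the largest rises and 4 of the largest falls per comparison, and not all are described (1 such gene is not reported here); STC2, PAPPA, INSR and IGF2R against shCON were chosen for their role. Older symbols were matched for 8 genes of the lists. DESeq2 1.42.0 and limma 3.58.1 served as alternatives. No sequences are shown.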

Additional observations from a re-analysis of the deposited data

How the results depend on the processing

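With 2 libraries per line, small differences were mostly out of reach, and genes under the low-count filter, the ligands among them, were not testable. Over 15 alternatives, the 7 tested members kept their direction against shCON except IGFBP7 in shHSPA8, which ran from -0.07 to 0.33 on the log2 scale. IGFBP2 ran from -4.20 to -3.74 in shUCHL1 and from -2.26 to -1.80 in shHSPA8. In shUCHL1 against shHSPA8, IGFBP5, at 0.00 as reported, was -0.01 with DESeq2, with DESeq2 size factors, without the low-count filter and without shHSPA8 replicate 2, -0.00 with only the 2 lines compared, without either shUCHL1 library and without shCON replicate 1, and -0.17 with the length correction, with or without the replicate block. Over all 15 alternatives IGFBP5 ran from -0.17 to 0.11, and without 1 library from -0.01 to 0.01. IGF1R, at -0.12, ran from -0.28 to 0.05 without 1 library, the last without shHSPA8 replicate 2.

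Numbers of called genes moved more. In shUCHL1 against shCON, 1987 genes passed, with 1230 under the replicate block, 3113 with the length correction and 528 to 2615 without 1 library. In shHSPA8 against shCON, 1859 passed, with 1104 when only these lines were fitted, 1131 under the replicate block and 920 to 2416 without 1 library. In shUCHL1 against shHSPA8, 1843 passed, with 3116, 923 and 3426 under the lines alone, the replicate block and the length correction, and 257 to 3083 without 1 library. Of the IGF system genes, 16 to 39 passed without 1 library in shUCHL1 against shCON, 42 with the length correction in shHSPA8 against shCON, and, between the knockdown lines, 41 with the lines alone, 48 with the length correction, 41 with the block added to it, and 12 to 40 without 1 library. Of the members, 2 to 5 passed between the knockdown lines without 1 library. The cause was not tested. Replicate numbers are not stated to mark a shared batch. Deviations of same-numbered libraries from their line means correlated across genes at -0.23 (shUCHL1 with shHSPA8) and 0.23 (shUCHL1 with shCON). For shHSPA8 with shCON the correlation was -0.54, so shHSPA8 replicate 1 tended to deviate like shCON replicate 2. What lies behind that shared deviation was not tested, and a block by replicate number does not pair those libraries. Under the replicate block 5 members passed between the knockdown lines, as reported.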

Other observations

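The place of the members among their neighbours was read from RefSeq gene order (assembly ARS1.2, protein-coding genes) after the values were seen. IGFBP2 and IGFBP5 are direct neighbours, and they stood on opposite sides of shCON, at -3.97 and 1.02 on the log2 scale in shUCHL1 and at -2.04 and 1.02 in shHSPA8. On the other side of IGFBP2, SMARCAL1 had -0.17 in shUCHL1 and -0.16 in shHSPA8, and neither passed edgeR's test. IGFBP3 lies beside IGFBP1, which had 0 to 2 counts per library. A tensin gene, coding for a focal adhesion adaptor, lies within 3 genes of IGFBP2, IGFBP3, IGFBP4, IGFBP5 and IGFBP6. TNS3, next to IGFBP3, fell in both lines (-0.36, SE 0.08, in shUCHL1 and -0.58, SE 0.08, in shHSPA8, edgeR adjusted p = 0.0248 and 0.00348), and TNS1, near IGFBP5, fell in shUCHL1 (-0.42, SE 0.08, edgeR adjusted p = 0.0152). TNS2 and TNS4 did not pass the test in any comparison.

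LOC102176024, next to IGF2 in that order, had 11 and 6 counts in shUCHL1, 0 and 0 counts in shHSPA8, and 7 and 15 counts in shCON, while IGF2 itself had at most 4 counts in any library.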
